A study of Homo sapiens with 12 samples.

Results

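The G2/M and mitosis genes described here are 45 genes that cells use to pass from the end of DNA replication through division, among 29035 genes of a single-cell count table from A549 cells, a human lung carcinoma line. They were listed by symbol from the function of their products, with earlier results of these data known. By role they comprise 8 cyclins, CDK1 and its regulators, 6 mitotic kinases and their activators, 6 genes of the spindle checkpoint and the anaphase-promoting complex, 5 of the centromere and kinetochore, 5 kinesin motors, 8 spindle and microtubule-associated proteins, 2 cytokinesis genes and 5 genes of chromosome and nuclear structure. Of the 45, 44 passed the filter on low counts and were tested. NUSAP1, a spindle-binding protein, had 10 molecules in all libraries together and was not tested. A549 cells were given 4 ng/mL TGFβ and taken at 0 h (before TGFβ), 0.5 h, 12 h, 24 h, 48 h and 96 h, in the study of their epithelial to mesenchymal transition. Every group is the same line in medium with serum. The later times also differ from 0 h in time in culture, and no untreated cells of those times were analysed here, so TGFβ and time in culture cannot be told apart. Cells were sorted 1 to a well, and CEL-Seq2 was used to make 2 libraries, each from 384 wells, for every time. Whether these 2 came from separate cultures is not stated in the labels, so the spread between them may be technical. The tests of single genes rest on this spread, taken as common to all times and drawn toward that of other genes. A larger spread at a single time, such as 96 h (below), gets no weight of its own. Tests of pooled times (below) also count the difference between the times pooled as spread.

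Cyclins A and B accumulate as a cell nears division and turn on the kinase CDK1, which is held back until CDC25 phosphatases remove inhibitory phosphates. Polo-like, Aurora and NEK kinases then build the spindle, kinetochores bind chromosomes to it, and the spindle checkpoint holds back the anaphase-promoting complex until all are attached. Most of these genes are transcribed mainly in G2 and M and nearly silent in G1. A lower level in a whole culture can therefore come from fewer dividing cells or from less mRNA in each. For this reason the genes were measured both as sums over a library and cell by cell.

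After limits on counts, detected genes and mitochondrial share, 1871 of 4608 wells were kept, 131 to 217 per library from 0 h to 48 h but only 54 and 64 at 96 h. Kept cells held 1264044 to 4500036 protein-coding UMIs (unique molecular identifiers, counted mRNA molecules) per library, of which 3917 to 20288 were of the 45 genes. The upper limits on UMIs and genes removed 119 wells (20 and 6 at 96 h), and 310 and 314 of the 384 wells at 96 h fell under the minimum of 2000 genes. The barcodes of replicate 1 and replicate 2 share 0 of 384, whereas libraries of one replicate number share all 384, so replicate number and barcode set cannot be told apart. All 8 markers of the A549 epithelium were detected, at a summed 5180 to 16107 CPM (counts scaled to library size, here with TMM scaling), with means of 15090 CPM at 0 h and 5247 CPM at 96 h. Summed markers of other cell types lay at 0.916 to 9.25 CPM for immune cells (3 of 5 genes in the table, PTPRC at 0), 0 to 0.273 for endothelium (2 of 4) and 0 to 5.15 for fibroblasts (5 of 5). Immune and fibroblast sums both moved with time. The immune sum went from a mean of 8.72 CPM at 0 h to 1.94 at 12 h and 1.44 at 96 h, with CD14 lower at all times from 12 h on, and the fibroblast sum from 0.707 CPM at 0 h to 4.58 at 48 h and 3.66 at 96 h, with LUM higher at both. These were the tested genes of each list, and their part in the results below was not tested.

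Promoters of the members were searched for letters that mark many G2/M genes, the CHR element and the CCAAT box, to show what the members share beyond their function. A window of 250 bases before to 50 after the gene start was found for 38 of the 45 (RefSeq, GRCh38.p14). TTTGAA or TTCGAA, the letters of the CHR, stood on either strand in 26 of 38 (68.4%) and in 16.6% of all 27305 promoters. CCAAT was found in 26 of 38 (68.4%) against 35.7% of all promoters, and both together in 21 of 38 (55.3%) against 6.58%. Among the members that were lower at 96 h (below), 7 of 11 promoters held a CHR sequence, as did 18 of 26 of the tested members that did not pass. The window of CDC25B, the member that fell most, held none of these letters. Windows are printed for 4 members with time-dependent levels, in lower case with motif letters in capitals, 5′ to 3′ along the gene (TTCAAA and ATTGG are the same motifs on the other strand). They lie at chr15:59104896-59105195 (+) for CCNB2, chr2:112764560-112764859 (-) for CKAP2L, chr3:172750476-172750775 (+) for ECT2 and chr1:211675572-211675871 (-) for NEK2.
CCNB2: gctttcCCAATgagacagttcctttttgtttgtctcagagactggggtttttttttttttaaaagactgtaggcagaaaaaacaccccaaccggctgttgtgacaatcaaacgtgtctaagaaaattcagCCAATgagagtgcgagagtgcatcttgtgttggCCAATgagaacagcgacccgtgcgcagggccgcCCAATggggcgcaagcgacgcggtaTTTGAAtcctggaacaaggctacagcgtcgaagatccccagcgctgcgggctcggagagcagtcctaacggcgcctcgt
CKAP2L: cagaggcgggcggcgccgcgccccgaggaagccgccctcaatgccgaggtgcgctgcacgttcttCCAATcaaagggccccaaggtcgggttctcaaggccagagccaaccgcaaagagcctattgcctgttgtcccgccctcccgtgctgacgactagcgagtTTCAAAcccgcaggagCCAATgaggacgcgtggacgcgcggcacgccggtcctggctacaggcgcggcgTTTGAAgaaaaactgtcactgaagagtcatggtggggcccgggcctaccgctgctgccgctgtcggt
ECT2: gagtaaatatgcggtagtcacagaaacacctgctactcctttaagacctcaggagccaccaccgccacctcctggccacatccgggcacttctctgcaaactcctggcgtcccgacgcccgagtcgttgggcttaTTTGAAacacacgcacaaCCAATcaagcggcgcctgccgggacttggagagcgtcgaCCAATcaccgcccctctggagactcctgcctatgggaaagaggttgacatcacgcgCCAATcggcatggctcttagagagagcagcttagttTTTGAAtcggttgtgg
NEK2: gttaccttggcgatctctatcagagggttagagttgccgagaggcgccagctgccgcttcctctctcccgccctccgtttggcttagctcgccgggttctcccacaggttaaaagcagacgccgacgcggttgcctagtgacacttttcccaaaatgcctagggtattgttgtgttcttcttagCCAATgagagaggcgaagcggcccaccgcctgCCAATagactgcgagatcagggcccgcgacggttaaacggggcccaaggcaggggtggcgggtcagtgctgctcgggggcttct
In CCNB2 the TTTGAA began 29 bases before the start and followed 4 CCAAT boxes. CKAP2L held the letters 86 and 17 bases before the start, ECT2 115 bases before and 34 bases after it, and NEK2 held CCAAT alone. A match is a sequence description and does not show that a factor binds there.

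The summed level of the 45 genes lay between 4554 and 5786 CPM up to 48 h and was lowest at 96 h. From 0 h to 96 h, here and below in the order of the 6 times, it was 5414, 4554, 5038, 4645, 4825 and 3041 CPM in replicate 1 and 5262, 5013, 5124, 5107, 5786 and 4188 CPM in replicate 2. Both 96 h libraries lay below all 10 others, and the 2 replicates of 48 h were farther apart than 0 h was from 12 h. The means were 5338 ± 107 CPM (SD, n = 2) at 0 h, 5306 ± 679 at 48 h and 3615 ± 811 at 96 h. With 2 libraries against 2, an exact permutation test cannot go below p = 0.333, so neighboring times were pooled 4 against 4, where the smallest possible p is 0.0286. Pooled 48 h and 96 h differed from 0 h and 0.5 h by -600.5 CPM (two-sided exact permutation p = 0.4; 0.686 after adjustment over the 3 pooled comparisons). For pooled 12 h and 24 h against the same libraries it was -82.1 CPM, with the same adjusted exact p of 0.686. Neither passed. The SD was 1152 CPM over the pooled libraries of 48 h and 96 h and 376 CPM over those of 0 h and 0.5 h. The former includes the difference between 48 h and 96 h, so this test cannot decide about 96 h alone. Without upper limits on wells, the 96 h values were 3922 and 4286 CPM, still below the lowest other library (4552 CPM).

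**Figure D1:**
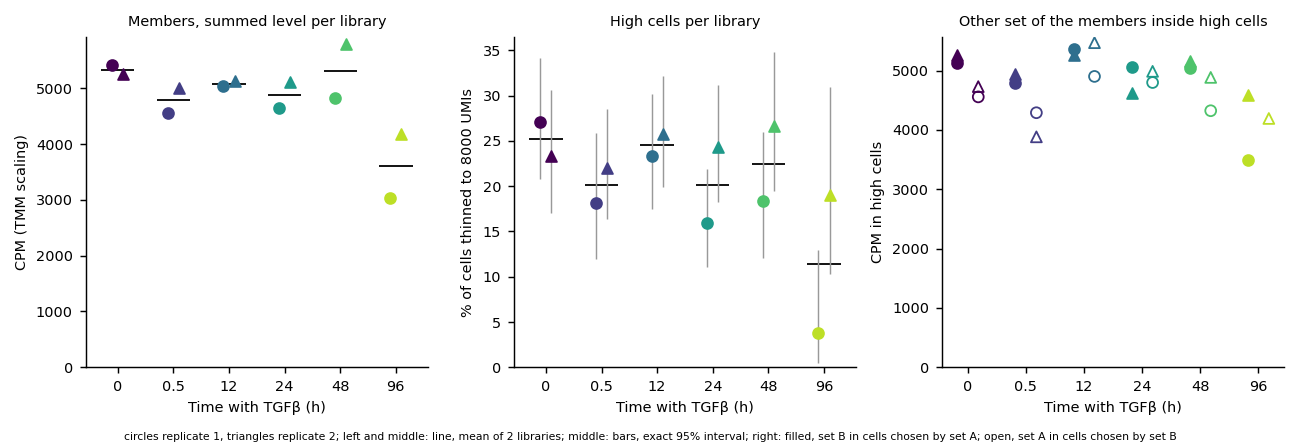
Left, summed level of the 45 genes in each library in CPM. Middle, percentage of cells with a high summed count, with exact 95% intervals. Right, level of one set of the genes inside high cells chosen by the other set. Circles are replicate 1 and triangles replicate 2. Both 96 h libraries, at 3041 and 4188 CPM, lie below the others on the left, while in the middle panel 96 h runs from 3.77% to 19.0%.

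Cell by cell, most cells held some of these molecules and a minority held many. To compare cells of unequal depth, 1822 kept cells were thinned to 8000 protein-coding UMIs and the 49 shallower cells were left out. The median cell then held 34 and 36 UMIs of the 45 genes at 0 h, 28 to 29 in the 4 libraries of 12 h and 24 h, 31 and 36 in those of 48 h, and 18 and 21 in those of 96 h. At the 90th percentile of cells the 2 libraries of 0 h had 81 and 85.8 UMIs, those of 12 h had 86 and 90.2, and those of 96 h had 48.6 and 64.2. So the middle of the distribution at 12 h was lower than at 0 h in both libraries while its upper end was not. For 24 h both were lower, with 73.7 and 78 UMIs at the 90th percentile. At 96 h both the median and the upper end lay below every other library.

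**Figure D2:**
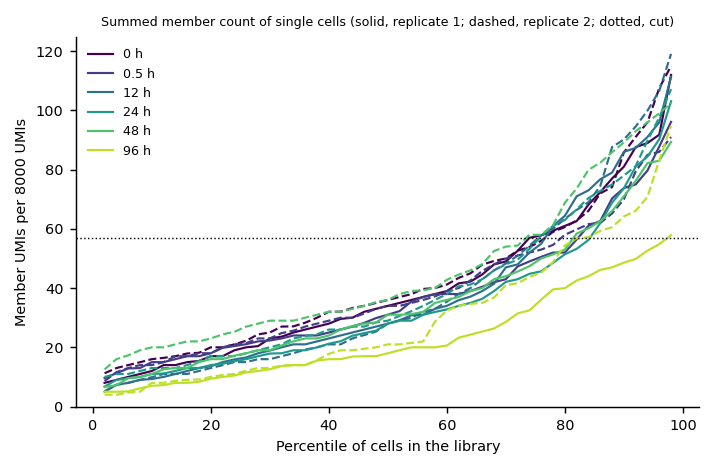
Summed count of the 45 genes per cell (UMIs per 8000) against the percentile of cells in each library, solid for replicate 1 and dashed for replicate 2, with the dotted line at 57 UMIs. The curves of 96 h run lowest over most percentiles, with medians of 18 and 21 UMIs. Those of the other times reach 57 UMIs between the 74th percentile (0 h replicate 1) and the 86th (24 h replicate 1). Replicate 2 of 96 h reaches it by the 84th percentile, and replicate 1 only by the 98th.

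A cell was called high when its thinned sum reached 57 UMIs, the 80th percentile of cells with every library weighted equally. This cut is a point on a continuous range and not a cell type, and 153 of the 1822 cells lay within 10% of it. High cells made up 27.1%, 18.2%, 23.4%, 16.0% and 18.3% of cells in replicate 1 of 0 h to 48 h and 23.3%, 21.99%, 25.7%, 24.3% and 26.6% in replicate 2, the values of 0 h being 49 of 181 and 38 of 163 cells. At 96 h there were 2 of 53 (3.77%, exact Clopper-Pearson 95% interval 0.460 to 13.0) and 12 of 63 (19.0%, 10.2 to 30.9). The intervals cover counting error only. The lower 96 h library lay below all others, whereas the other one lay above 3 libraries of 0.5 h, 24 h and 48 h. For pooled 48 h and 96 h against 0 h and 0.5 h the difference was -5.70 percentage points (exact permutation p = 0.371, adjusted 0.6), and for 12 h and 24 h it was -0.296 points (exact p = 0.971). Neither was resolved from the spread between pooled libraries, which for the late pair includes the difference between 48 h and 96 h. Without the upper limits on wells the share at 96 h became 9.59% and 18.8%. The removed wells had a summed level of 4618 to 9263 CPM per library, 5466 and 5148 CPM at 96 h. Unthinned, the 96 h shares were 5.56% and 14.1%. High cells were somewhat deeper than the rest in 10 of 12 libraries, with medians of 13770 to 30108 against 12344 to 25438 protein-coding UMIs.

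To ask whether the cells that remained high held less mRNA of these genes each, the list was divided, every other gene, into set A (23 genes) and set B (22 genes). Cells were chosen by one set, each with its own cut (27 UMIs for A and 31 for B), and the level of the other set was then read in them. The sums of the sets correlated across the cells of a library at r = 0.760 to 0.857, a description over cells that share library and depth. In cells chosen by set A, set B stood at 5128, 4785, 5366, 5053, 5039 and 3496 CPM in replicate 1 and 5271, 4950, 5260, 4627, 5161 and 4594 CPM in replicate 2 (here CPM of total counts, without TMM scaling). Up to 48 h these 10 values spanned 4627 to 5366 CPM. Both 96 h values lay under that span, but they came from only 3 and 9 cells. When wells over the upper limits were included, the same values at 96 h were 5041 and 4969 CPM, inside the range of the earlier times. In cells chosen by set B, set A stood at 4557, 4290, 4902, 4799 and 4324 CPM up to 48 h in replicate 1, which had 0 such cells at 96 h, and at 4730, 3884, 5471, 4988, 4885 and 4193 CPM in replicate 2, with 12 such cells at 96 h.

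A fixed cut on one set narrows the range that a correlated set can take in the chosen cells. When instead the highest 20% of cells of each library were taken, both 96 h libraries lay below all 10 others in both measures, with set B at 3228 and 4379 CPM against 4481 or more and set A at 2895 and 3876 CPM against 4055 or more. At 96 h this takes in cells under the fixed cut, which only 3 and 9 cells reached for set A and 0 and 12 for set B. Fewer high cells and less mRNA in each therefore cannot be told apart by this measure.

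With the fixed cut, in the set A measure, all 4 libraries of 12 h and 24 h lay above the 4 of 0 h and 0.5 h, by 674.6 CPM in the mean. This reached the smallest p that 4 against 4 allows (exact permutation p = 0.0286, adjusted 0.0857 over 3 comparisons). The adjusted value could not pass, since 96 h replicate 1 had no cell over the set B cut. Both set A comparisons with 48 h and 96 h were thus 3 against 4 (smallest exact p 0.0571). The set B measure did not share this difference, at 43.1 CPM (exact p = 0.857). For 48 h and 96 h against 0 h and 0.5 h the difference was -460.8 CPM in set B (exact p = 0.314, adjusted 0.471) and 102.3 CPM in set A (exact p = 0.743), the latter without 96 h replicate 1, which had no cell over the cut. With the highest 20% of each library, which keeps that library through cells under the cut, the set A difference turned to -435.9 CPM (exact p = 0.514). No comparison of the set B measure passed after adjustment, and none of the set A measure could at the fixed cut.

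Among the cells that were not high by set A, set B stood at 2093 to 2360 CPM in the 4 libraries of 0 h and 0.5 h and at 1635 to 1794 CPM in the 4 libraries of 12 h and 24 h, so these groups did not overlap. At 48 h the values were 1928 and 2244 CPM, and at 96 h 1489 and 1682 CPM. CDC25B belongs to set B. Without it the early libraries stood at 1937 to 2207 CPM and those of 12 h and 24 h at 1586 to 1751 CPM, still apart. The converse measure overlapped, with set A at 1497 to 1727 CPM in the early libraries and at 1343 to 1728 CPM at 12 h and 24 h. These low-cell values were taken up after the data had been seen and were not tested.

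Gene by gene, changes in library sums were few until 96 h. The comparisons with 0 h share its 2 libraries. At 0.5 h, 0 of 44 members passed (adjusted p under 0.05 by edgeR's quasi-likelihood test, here and below), where 0.44% of the 10465 tested genes passed. DESeq2 also called 0, and 2 members had an unadjusted p under 0.05, yet 39 of 44 log2 changes were below 0, with a median of -0.13 against -0.0024 for all genes. At 12 h, 1 member rose and 1 fell, against 14.3% of all genes that passed. At 24 h it was again 1 and 1, against 13.2%. At 48 h, 2 rose and 3 fell, against 18.5%. In number the members passed in a smaller share than genes at large at these 3 times, a difference that was not tested. CDC25B and CKAP2L made up the calls of both 12 h and 24 h, so these times are not separate observations. At 96 h, 15 fell and 0 rose, where 23.7% of all genes passed in either direction and 11.1% fell. The median log2 change of the 44 was -0.44 against 0.017 for all genes, and 41 of 44 were below 0, as were 48.9% of all genes.

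Set against the time before, 48 h differed from 24 h in 1 member (ECT2, lower, where 5.24% of all genes passed). From 48 h to 96 h, 4 members fell (NEK2, CCNB2, UBE2C and AURKA) and 0 rose, where 1.21% of all genes passed and 0.411% fell. Of the 44 log2 changes 43 were below 0, as were 51.2% of all genes, with medians of -0.49 and -0.011. Members vary together across cells, so such directions are not separate observations. The counts of members that passed depend on single libraries. At 96 h against 0 h the 15 became 7 without 96 h replicate 1, 9 without 0 h replicate 1 and 19 without 96 h replicate 2. The 4 between 48 h and 96 h became 0 without 96 h replicate 1 and 7 without 96 h replicate 2, and ECT2 against 24 h did not pass without 24 h replicate 2 or either 48 h library. With at least 3000 genes and at most 20% mitochondrial counts per cell, 6 members passed at 96 h against 0 h and 0 against 48 h. The 7 that fell at 96 h also without its replicate 1 were CDC25B, NEK2, CCNB2, AURKA, ECT2, KIF20A and UBE2C, of which CCNB2, AURKA and KIF20A did not pass with these stricter limits. Under those limits CCNB2, AURKA and KIF20A had log2 changes of -1.07, -1.89 and -1.18, against -1.34, -1.34 and -1.23 with the limits used elsewhere. How many cells met the stricter limits is not given here. Without upper limits on wells, BUB1B, BUB3, DLGAP5 and TPX2 did not pass at 96 h, while CCNB1 fell and CKAP2L rose. Other members passed at 96 h only under another setting. BUB1, CCNB1, CENPF, MKI67, PLK1 and TOP2A fell both without the filter on low counts and without 96 h replicate 2, BIRC5 without that library, and HMMR and CCNA2 without the filter or with each cell scaled.

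**Figure D3:**
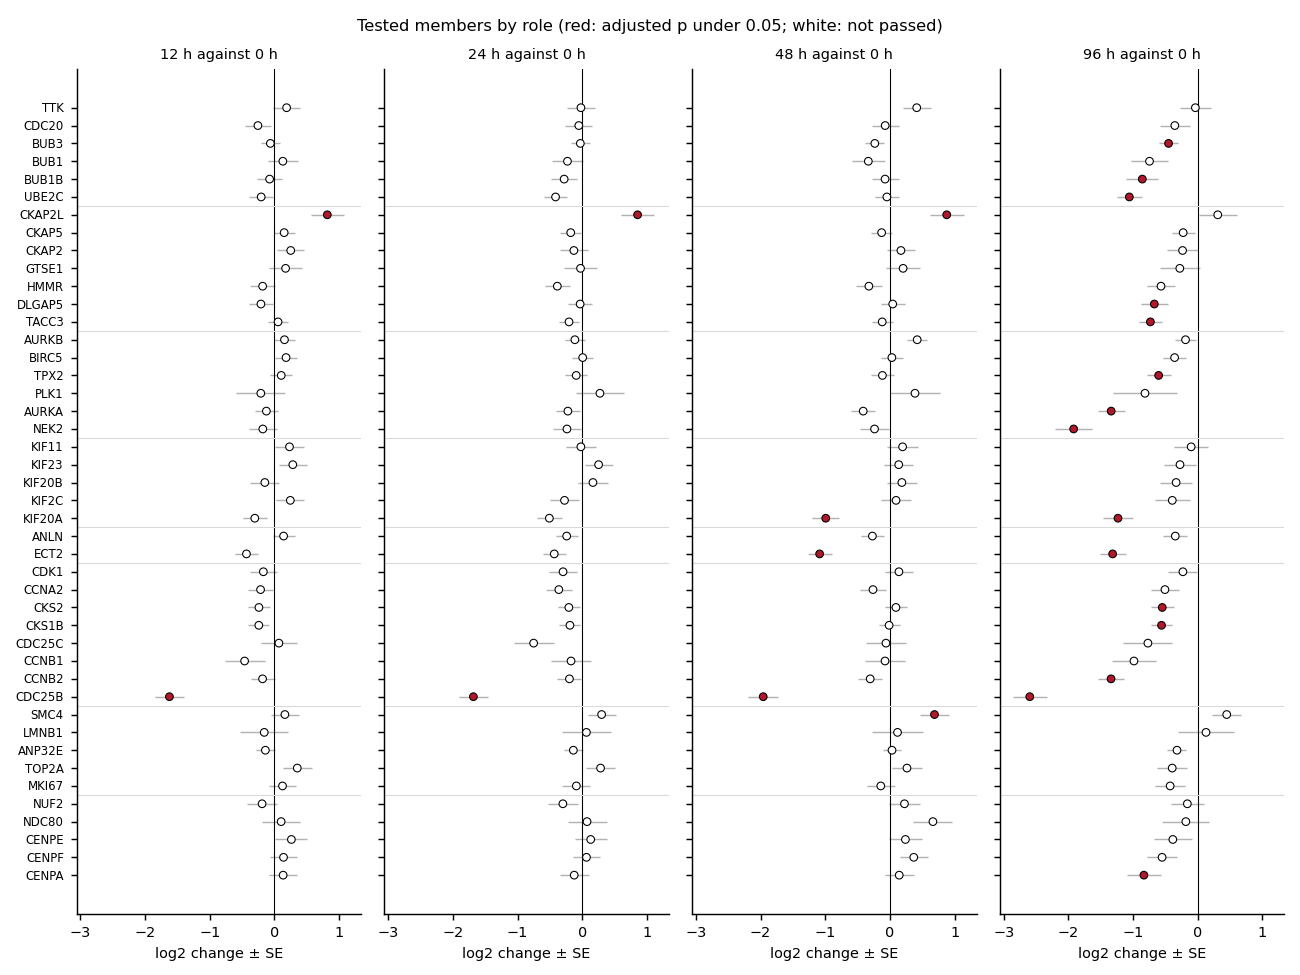
Log2 change ± SE against 0 h of the 44 tested members, grouped by role, at 12 h, 24 h, 48 h and 96 h. Red points passed at an adjusted p under 0.05 and white points did not. CDC25B is red and far left in every panel, CKAP2L is red on the right at 12 h, 24 h and 48 h, and 15 members are red on the left at 96 h.

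Among the 8 cyclins, CDK1 and its regulators, CDC25B stood apart in time and size. Its product is the phosphatase that starts CDK1 activation at the entry to mitosis. It stood at 182, 218, 60.3, 59.5, 53.4 and 17.1 CPM in replicate 1 and 199, 161, 63.4, 59.2, 43.8 and 44.5 CPM in replicate 2. All 8 libraries from 12 h on lay below all 4 before. Its log2 change was -1.62 ± 0.22 (SE) at 12 h (adjusted p = 2.46e-05), -1.68 ± 0.22 at 24 h, -1.96 ± 0.23 at 48 h and -2.60 ± 0.26 at 96 h (adjusted p = 3.21e-07). Each of these passed under all 20 other settings tried. CDC25C, the other CDC25 phosphatase of the list, had log2 changes between -0.77 and 0.069 from 12 h on, none of which passed.

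CCNB2, cyclin B2, stood at 257, 175, 213, 204, 175 and 63.7 CPM in replicate 1 and 187, 161, 178, 183, 184 and 110 CPM in replicate 2. Only the 96 h libraries were clear of the rest, with a log2 change of -1.34 ± 0.21 (adjusted p = 3.09e-05). Its relative CCNB1 was at 203 and 196 CPM at 0 h against 66.8 and 133 at 96 h, and did not pass (-0.99 ± 0.33, adjusted p = 0.0586). CKS1B, a small protein that binds CDKs, was at 771, 635, 638, 651, 642 and 416 CPM in replicate 1 and 605, 608, 526, 555, 722 and 516 CPM in replicate 2. It fell at 96 h by 0.56 on the log2 scale (adjusted p = 0.0149), a call lost without 0 h replicate 1 or 96 h replicate 1. Its paralog CKS2 stood at 346, 261, 285, 256, 291 and 204 CPM in replicate 1 and 325, 284, 283, 327, 426 and 254 CPM in replicate 2, and fell by 0.55 (adjusted p = 0.0255), lost without the same libraries. CDK1 itself, the kinase that drives mitosis, was at 191 and 190 CPM at 0 h and 143 and 181 CPM at 96 h (-0.23 ± 0.22, adjusted p = 0.511). In this group 4 of 8 fell at 96 h, and all 8 changes were below 0.

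Of the 6 mitotic kinases and their activators, 3 fell at 96 h. NEK2, a kinase that separates the centrosomes, stood at 53.3, 47.4, 48.0, 41.0, 30.4 and 14.0 CPM in replicate 1 and 44.5, 43.1, 38.3, 42.2, 54.6 and 12.0 CPM in replicate 2. Up to 48 h its libraries overlapped, and both 96 h libraries lay below all of them (-1.92 ± 0.29 against 0 h, adjusted p = 2.06e-05; -1.68 ± 0.30 against 48 h, adjusted p = 0.00416). AURKA, the Aurora kinase of the spindle poles, was at 114, 94.1, 108, 93.2, 88.8 and 31.1 CPM in replicate 1 and 122, 101, 109, 110, 88.6 and 61.1 CPM in replicate 2 (-1.34 ± 0.21, adjusted p = 3.26e-05). Its activator TPX2 fell by 0.61 at 96 h (adjusted p = 0.0205), with 115 and 111 CPM at 0 h against 55.9 and 91.7 CPM, and did not pass without 96 h replicate 1 or 0 h replicate 1.

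The Aurora kinase of the centromere and its partner did not pass in any comparison of the library sums as described. AURKB was at 167, 137, 188, 151, 201 and 121 CPM in replicate 1 and 146, 168, 160, 137, 217 and 152 CPM in replicate 2 (-0.19 ± 0.17 at 96 h, adjusted p = 0.457). Both 48 h libraries were its highest, with log2 changes of 0.42 ± 0.16 against 0 h (adjusted p = 0.0674) and 0.53 ± 0.16 against 24 h (adjusted p = 0.0505), and 96 h was lower than 48 h by a log2 value of -0.61 ± 0.17 (adjusted p = 0.0755). AURKB passed at 48 h against 0 h without upper limits on wells, and in the other 2 without the filter on low counts or with each cell scaled. BIRC5, survivin, which sits in one complex with AURKB, was at 220, 219, 232, 239, 220 and 140 CPM in replicate 1 and 236, 204, 283, 218, 245 and 214 CPM in replicate 2. For both genes replicate 1 of 96 h lay below all libraries of 0 h to 48 h and replicate 2 lay within their range, and without that replicate 2 BIRC5 passed. PLK1, polo-like kinase, was counted only 716 times and stood at 15.6 and 24.6 CPM at 0 h and 4.66 and 17.3 CPM at 96 h (-0.82 ± 0.49, adjusted p = 0.263).

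Of the 6 genes of the spindle checkpoint and the anaphase-promoting complex, 3 fell at 96 h. UBE2C, the enzyme that hands ubiquitin to the complex, stood at 249, 188, 243, 193, 240 and 89.3 CPM in replicate 1 and 266, 242, 203, 194, 258 and 156 CPM in replicate 2. Both 96 h libraries lay below all others (-1.06 ± 0.20 against 0 h, adjusted p = 2.69e-04; -1.01 ± 0.20 against 48 h, adjusted p = 0.00901). BUB3, a checkpoint protein that most cells express, was at 287, 241, 272, 275, 233 and 206 CPM in replicate 1 and 246, 254, 239, 248, 220 and 184 CPM in replicate 2. It fell by 0.45 at 96 h (adjusted p = 0.0303) and the checkpoint kinase relative BUB1B by 0.86 (adjusted p = 0.0132), and neither passed without either 96 h library or without 0 h replicate 1. For BUB1B the direction also turned with the stricter limits on cells. BUB1, TTK and CDC20 did not pass.

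At the centromere and kinetochore 1 of 5 fell at 96 h. CENPA, the histone variant that marks the centromere, stood at 42.1, 44.97, 50.3, 38.9, 49.4 and 17.9 CPM in replicate 1 and 56.6, 49.7, 57.9, 52.5, 60.2 and 36.5 CPM in replicate 2 (-0.83 ± 0.27, adjusted p = 0.0248). The call was lost without 0 h replicate 2 or 96 h replicate 1. CENPF, a large kinetochore protein, was at 180, 147, 191, 173, 214 and 89.3 CPM in replicate 1 and 198, 185, 225, 223, 275 and 167 CPM in replicate 2, and did not pass (-0.55 ± 0.23, adjusted p = 0.0921). CENPE, NDC80 and NUF2, which join kinetochores to microtubules, had log2 changes of -0.39 to -0.16 at 96 h that did not pass. At 48 h all 5 of this group had log2 changes above 0, up to 0.66, with 0 calls, though NDC80 rose without 48 h replicate 1.

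The kinesins and the cytokinesis genes each held 1 member that was already lower at 48 h. KIF20A, a motor that carries the passenger complex to the spindle midzone, was at 55.2, 27.0, 37.1, 37.8, 25.0 and 18.6 CPM in replicate 1 and 43.9, 30.2, 43.3, 31.4, 24.7 and 23.3 CPM in replicate 2. All later libraries lay below both of 0 h, with log2 changes of -0.79 ± 0.19 at 0.5 h (adjusted p = 0.0872, passed only without the filter on low counts or with the replicate number as a block), -0.99 ± 0.21 at 48 h (adjusted p = 0.00102) and -1.23 ± 0.23 at 96 h (adjusted p = 2.97e-04). ECT2, the exchange factor that switches on RhoA for the contractile ring, was at 105, 93.8, 72.5, 72.1, 49.7 and 39.6 CPM in replicate 1 and 112, 125, 88.4, 89.5, 52.5 and 47.2 CPM in replicate 2. From 12 h on all its libraries lay below those before, and those of 48 h and 96 h below those of 12 h and 24 h. Its log2 change was -0.43 at 12 h and at 24 h (not passed), -1.09 ± 0.19 at 48 h (adjusted p = 1.05e-04) and -1.32 ± 0.20 at 96 h (adjusted p = 2.22e-05).

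Their neighbors in role did not pass at any time. ANLN, anillin, which scaffolds the contractile ring, was at 88.3, 61.2, 88.0, 66.2, 59.7 and 59.0 CPM in replicate 1 and 73.4, 76.0, 90.5, 71.0, 75.2 and 67.8 CPM in replicate 2. KIF23, a motor of the midzone, was at 65.6, 63.0, 90.8, 79.0, 73.7 and 46.6 CPM in replicate 1 and 83.8, 97.8, 91.0, 99.9, 91.1 and 75.7 CPM in replicate 2. KIF20B, a motor of late cytokinesis, was at 69.7, 48.3, 53.9, 65.0, 67.7 and 51.2 CPM in replicate 1 and 70.8, 77.3, 72.9, 93.9, 93.2 and 59.8 CPM in replicate 2. For these 3 genes and for KIF11 and KIF2C, 2 further spindle motors, the log2 changes against 0 h lay between -0.39 and 0.28 and none passed.

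Of the 8 spindle and microtubule-associated genes, CKAP2L was the member that rose. It encodes a spindle protein and was at 21.9, 24.9, 42.2, 43.7, 47.0 and 36.5 CPM in replicate 1 and 36.7, 34.5, 60.8, 63.2, 61.3 and 35.9 CPM in replicate 2. The 6 libraries of 12 h to 48 h lay above the 4 before, and the 96 h libraries between the 2 of 0 h. The gene rose by 0.82 ± 0.25 on the log2 scale at 12 h (adjusted p = 0.0349), 0.86 ± 0.26 at 24 h and 0.88 ± 0.26 at 48 h (adjusted p = 0.0228), whereas 96 h did not pass (0.31 ± 0.29, adjusted p = 0.501). All 3 calls were lost without 0 h replicate 1 (log2 changes of 0.49, 0.52 and 0.54) and each without replicate 2 of its own time. DESeq2 did not call the gene at 12 h (adjusted p = 0.0512), and with stricter limits on cells the 24 h value was -0.10.

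TACC3, which stabilizes spindle microtubules with clathrin, was at 84.2, 88.7, 89.0, 74.9, 69.7 and 46.6 CPM in replicate 1 and 80.9, 87.2, 82.6, 68.0, 82.9 and 52.5 CPM in replicate 2 (-0.73 ± 0.18 at 96 h, adjusted p = 0.00371). Both 96 h libraries lay below all others, and the call was lost without 96 h replicate 1 (adjusted p = 0.0523). DLGAP5, a spindle assembly factor, also fell at 96 h, by 0.67 (adjusted p = 0.0231), and lost the call without any 1 of 3 libraries (0 h replicate 1, 96 h replicate 1 and 96 h replicate 2). CKAP5, a microtubule polymerase that cells express throughout the cycle, was at 84.2, 79.7, 90.8, 74.2, 85.4 and 64.4 CPM in replicate 1 and 82.6, 84.4, 94.4, 73.2, 65.9 and 77.7 CPM in replicate 2, with no call at any time.

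Of the 5 genes of chromosome and nuclear structure 0 fell at any time, although TOP2A and MKI67 fell at 96 h without the filter on low counts or without 96 h replicate 2. SMC4, a core subunit of the condensin complexes that compact chromosomes, was at 119, 100, 141, 145, 190 and 181 CPM in replicate 1 and 153, 173, 164, 192, 250 and 190 CPM in replicate 2. It rose at 48 h (0.69 ± 0.22, adjusted p = 0.0347), a call lost without either 0 h library or 48 h replicate 2, and at 96 h the value was 0.45 ± 0.23 (adjusted p = 0.172). TOP2A, the topoisomerase that untangles sister chromatids, was at 335, 277, 399, 355, 349 and 175 CPM in replicate 1 and 334, 345, 456, 460, 456 and 332 CPM in replicate 2 (-0.40 ± 0.23 at 96 h, adjusted p = 0.252). Replicate 2 of 96 h lay close to 0 h, and replicate 1 below all other libraries. ANP32E, a chaperone that removes the histone H2A.Z, was at 254, 230, 219, 226, 238 and 178 CPM in replicate 1 and 238, 222, 227, 222, 266 and 215 CPM in replicate 2. MKI67, the Ki-67 antigen of cycling cells, was at 137 and 190 CPM at 0 h and at 88.5 and 153 CPM at 96 h, which did not pass.

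**Figure D4:**
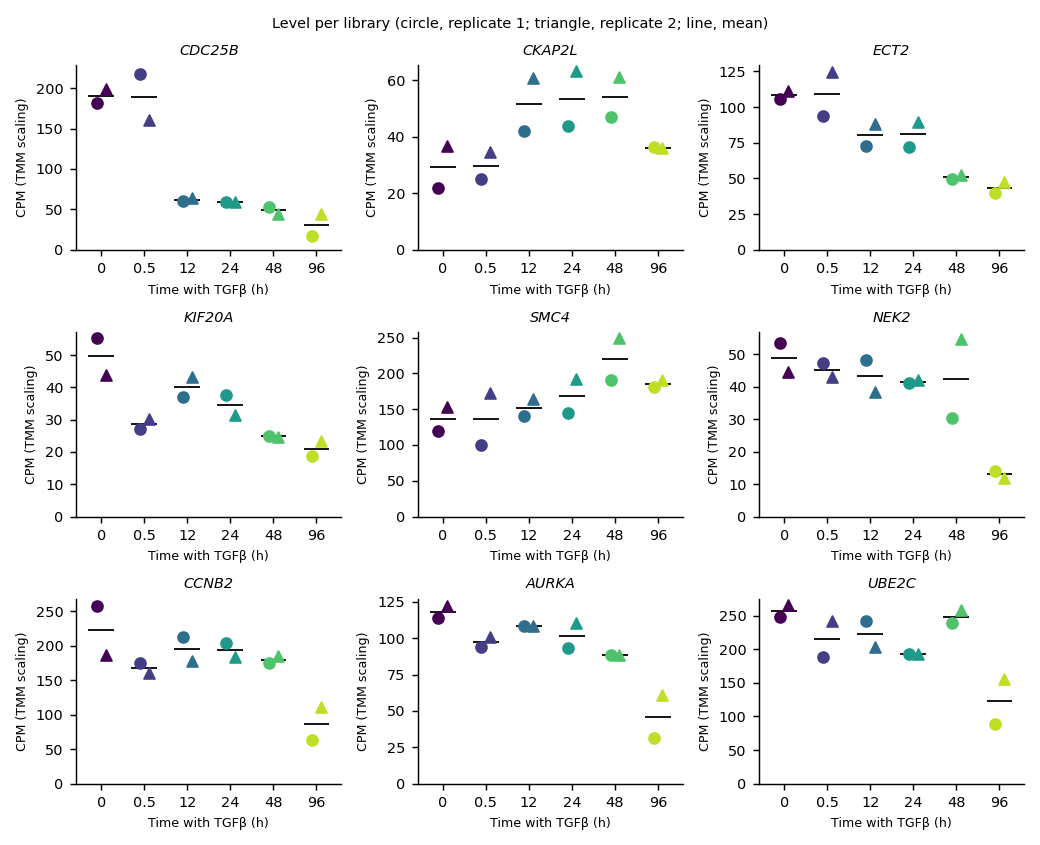
Level in CPM (TMM scaling) of the 9 members named for the largest changes, in each library by time, with lines at the mean of the 2 libraries. CDC25B steps down between 0.5 h and 12 h, ECT2 between 24 h and 48 h, and NEK2, CCNB2, AURKA and UBE2C are lowest at 96 h, while CKAP2L lies higher at 12 h to 48 h and SMC4 highest at 48 h.

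Inside high cells, where fewer molecules were counted than in library sums, 2 to 4 members passed per comparison. Members of set B were tested in cells chosen by set A and those of set A in cells chosen by set B, 43 of the 45 in all. At 12 h against 0 h, 2 passed, where 8.1% of genes passed in cells chosen by set A and 7.37% in those chosen by set B. At 48 h it was 4, against 9.77% and 10%, and at 96 h 3, against 8.04% and 6.57%. Leaving out 0 h replicate 1 made these counts 1, 2 and 2. Without 12 h replicate 2 the first was 1, and without 48 h replicate 2 the second was 2. The 3 at 96 h became 7 with the cut at the 70th percentile, 1 at the 90th and 11 with the highest 20% of each library. At 96 h that last setting also takes in cells under the cut.

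CDC25B was lower in high cells too. It stood there at 254.6, 364.8, 103.1, 103.1, 74.4 and 25.5 CPM in replicate 1 and 272.9, 213.9, 107.9, 97.2, 80.5 and 82.1 CPM in replicate 2, the last pair resting on 2 and 21 UMIs. Its level fell by 1.35 ± 0.23 on the log2 scale at 12 h (adjusted p = 3.36e-05), 1.73 ± 0.25 at 48 h and 1.99 ± 0.34 at 96 h. In the other cells it went from 145.4 and 185.7 CPM at 0 h to 44.2 and 48.3 at 12 h and 17.0 and 37.1 at 96 h. High and other cells thus lay lower together from 12 h on. ECT2 in high cells stood at 169.4, 135.9, 79.4 and 89.3 CPM in replicate 1 of 0 h, 12 h, 48 h and 96 h, with 192.8, 165.5, 95.5 and 93.8 CPM in replicate 2, and fell at 48 h (-1.02 ± 0.22, adjusted p = 0.00130) and at 96 h (-0.99 ± 0.29, adjusted p = 0.0244). In other cells ECT2 was at 76.2 and 92.6 CPM at 0 h and 37.3 and 37.9 at 96 h.

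KIF20A in high cells was at 138.7 and 123.6 CPM at 0 h and 71.1 and 52.4 at 48 h (-1.05 ± 0.26, adjusted p = 0.00545). At 96 h its values of 153.1 and 78.2 CPM, from 12 and 20 UMIs, lay on both sides of 0 h, and the change did not pass (-0.44 ± 0.33, adjusted p = 0.508). AURKA passed at 96 h (-1.07 ± 0.27, adjusted p = 0.00978), at 152.6 CPM in the single library with such cells against 297.4 and 334.8 at 0 h. NEK2 was at 101.3 and 94.1 CPM in high cells at 0 h and at 39.7 CPM in that 96 h library, from 13 UMIs, and did not pass (-1.32 ± 0.45, adjusted p = 0.0771). These 96 h values of AURKA and NEK2 rest on 1 library, which the fit takes to vary like those of other times.

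CCNB2 and UBE2C, which fell in library sums at 96 h, did not pass in high cells. CCNB2 was there at 500.2 and 403.2 CPM at 0 h and 204.2 and 355.8 at 96 h (-0.61 ± 0.25, adjusted p = 0.143), and in other cells at 155.0 and 133.4 against 56.0 and 60.5 CPM. UBE2C was at 543.8 and 619.1 CPM in high cells at 0 h and 357.3 and 441.8 at 96 h (-0.53 ± 0.22, adjusted p = 0.152), and in other cells at 128.0 and 177.2 against 72.1 and 98.5 CPM. For both genes, high and other cells had lower values in the 2 libraries of 96 h than in those of 0 h.

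The 2 members that rose in library sums were also followed in both kinds of cell. CKAP2L in high cells was at 43.6, 83.4 and 82.7 CPM in replicate 1 of 0 h, 12 h and 48 h, with 70.6, 130.2 and 112.4 CPM in replicate 2, and passed at 12 h (0.90 ± 0.27, adjusted p = 0.0283) but not at 48 h (0.83 ± 0.29, adjusted p = 0.0658). In other cells it was at 12.8 and 28.8 CPM at 0 h and 26.4 and 34.96 at 12 h, a range that overlapped. SMC4 in high cells was at 177.6 and 224.8 CPM at 0 h and 282.7 and 365.6 at 48 h, and rose (0.71 ± 0.22, adjusted p = 0.0412), with 94.1 and 136.5 against 155.9 and 200.9 CPM in other cells.

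**Figure D5:**
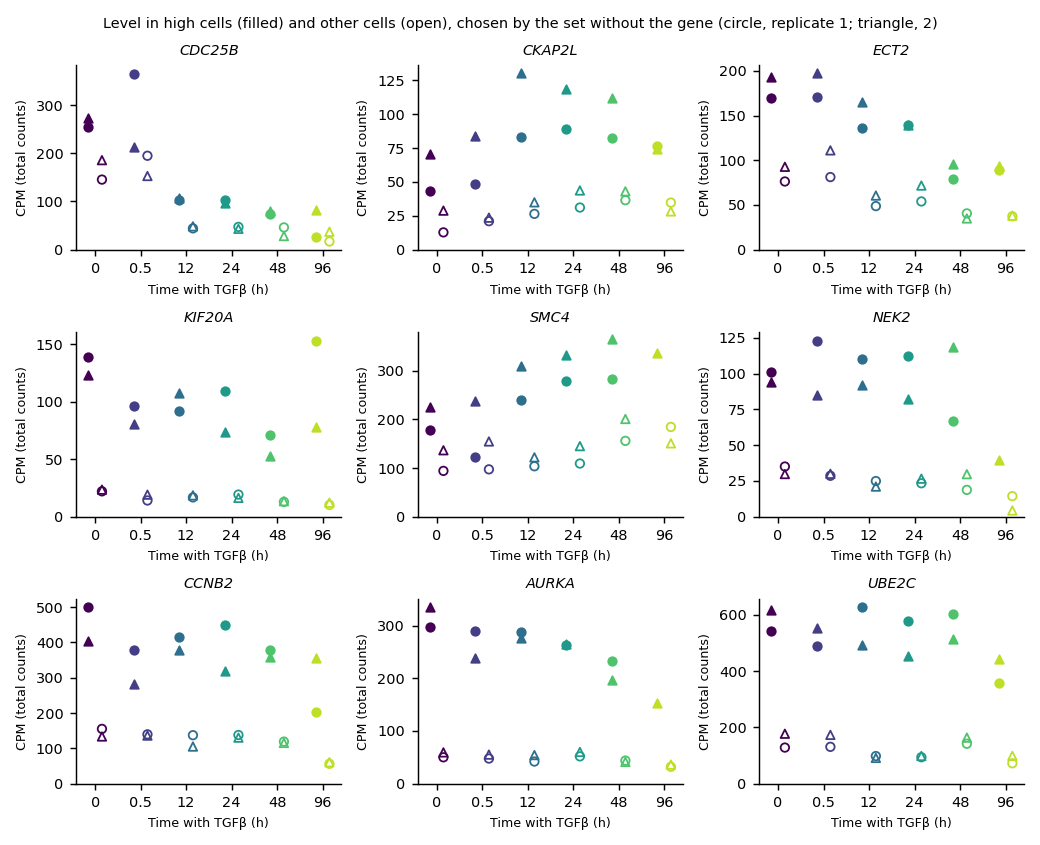
Level in CPM of 9 members in high cells (filled) and other cells (open) per library and time, with cells chosen by the set that does not hold the gene, circles for replicate 1 and triangles for replicate 2. CDC25B and ECT2 step down in both kinds of cell, whereas the CCNB2 values of other cells drop only at 96 h, to 56.0 and 60.5 CPM. At 96 h, SMC4, NEK2 and AURKA have 1 library only among high cells.

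How far each gene marks high cells differed. At 0 h the ratio of its level in high cells to that in others, chosen by the set without the gene, had a median of 3.05 over the members that gave one. It was highest for PLK1 (6.78 ± 1.47, SD, n = 2), AURKA (5.82 ± 0.22), KIF20A (5.79 ± 0.73) and GTSE1 (5.57 ± 0.025), and 10 members were over 4 and 36 over 2. The 6 members that cells express throughout the cycle (BUB3, CKAP5, CKS1B, ANP32E, LMNB1 and SMC4) had ratios of 1.40 to 1.96. CDK1 at 1.74 ± 0.017 and CDC25B at 1.61 ± 0.20 were in that range too. So CDC25B, which was already lower at 12 h, was among the members with the lowest ratios before TGFβ.

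Genes outside the 45 were followed in lists written by hand. Of 70 other G2/M and mitosis genes, 65 were tested, and at 96 h against 0 h 14 fell and 1 rose, with a median log2 change of -0.28 and 51 below 0. Of all tested genes 11.1% fell and 23.7% passed in either direction. The lowest adjusted p values were those of CDKN3 (150 ± 22.9 to 61.9 ± 20.5 CPM, SD, n = 2), a phosphatase of CDK1, PTTG1 or securin, which guards sister chromatid cohesion (381 ± 85.8 to 143 ± 67.3 CPM), JPT1 (727 ± 100 to 391 ± 67.4 CPM) and LBR, the lamin B receptor (68.4 ± 7.63 to 36.4 ± 2.08 CPM). Their log2 changes were -1.27, -1.40, -0.89 and -0.91. In the same list 5 members fell at 12 h and 0 rose, 5 fell and 1 rose at 24 h, and 1 fell and 3 rose at 48 h. The shares of all genes that passed at these times were 14.3%, 13.2% and 18.5%. Of 42 tested G1/S and DNA replication genes only GINS1, a subunit of the replicative helicase complex, passed at 96 h (-0.53 ± 0.19, adjusted p = 0.0456), and the median was -0.050. CDC6, which loads the helicase, was at 67.7 ± 1.09 CPM at 0 h and 47.8 ± 9.30 at 96 h (adjusted p = 0.0529), RRM2 of ribonucleotide reductase at 305 ± 33.1 and 239 ± 11.3 (adjusted p = 0.112), and UHRF1, which helps copy DNA methylation, at 26.1 ± 5.20 and 40.2 ± 8.98 CPM (adjusted p = 0.0986). Among 4 tested CDK inhibitors CDKN1A, or p21, rose from 63.7 ± 2.25 to 194 ± 5.61 CPM (log2 change 1.60 ± 0.29, adjusted p = 0.00130). CDKN2C was at 38.7 ± 5.23 and 51.6 ± 0.60 CPM, CDKN1B, or p27, at 30.5 ± 2.60 and 34.1 ± 1.21 and CDKN2D at 8.02 ± 0.91 and 10.1 ± 1.11, and these 3 did not pass. At 96 h, 15 of 44 members, 14 of 65 other G2/M genes and 1 of 42 G1/S genes fell, against 11.1% of all genes. The difference between these lists was not tested.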

How the data were processed

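Propidium iodide-negative cells were sorted 1 to a well. CEL-Seq2 gave a 10 nt UMI, a cell barcode and an 81 nt insert near the poly(A) tail. The table deposited by the authors holds raw counts, whole numbers of molecules per gene and well, not normalized. Per the labels the tools of the authors were UMI-tools, featureCounts 2.0.1, HISAT2 2.2.1 and Trim Galore 0.6.7, with GRCh38 as genome. The methods of the study give other versions of some of these tools. The annotation release and whether strand was used in counting were not given in the sources used here. Counts of overlapping genes and of genes with near-identical copies are therefore uncertain. The members and lists were chosen with earlier results of these data known, so no count over a list is independent support.

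Wells were kept at 100 to 40000 UMIs, 2000 to 7000 genes and at most 35% mitochondrial counts. Doublets were not called, since cells were sorted 1 to a well, and whether each well held a single cell was not checked. For each library the UMIs of protein-coding genes were added up over kept cells, and edgeR 4.0.16 under R 4.3.3 (TMM, filterByExpr, robust quasi-likelihood F test) was fitted with 1 mean per time over all 12 libraries (6 residual degrees of freedom). Benjamini-Hochberg adjustment covered the 10465 genes tested in each of 7 comparisons, and each SE was taken as the absolute log2 change over the square root of F. The tests were also run with DESeq2 1.42.0 and were tested on simulated data. At the smallest library sum 1 UMI is just under 1 CPM, and all intervals cover counting error only. Cells were thinned to 8000 UMIs with a fixed seed, and pooled times were compared by exact permutation, two-sided, with adjustment over the 3 comparisons of each of 4 measures. High cells were fitted with at least 3 such cells per library, which left 96 h replicate 1 out for set A. Levels in high and other cells are CPM of total counts.

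Named members are the 2 of each role with the highest mean CPM, the 5 called members with the largest change per comparison whose libraries did not overlap, and up to 4 genes of each further list by adjusted p at 96 h. Other members named beside them were chosen after their values were seen. Promoters came from RefSeq. Further tools were matplotlib 3.10.9, scipy 1.17.1, pandas 2.3.3, numpy 2.4.6 and Python 3.11.15.

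Alternatives were DESeq2 scaling and test, no filter, each replicate left out, the replicate number as a block, no upper limits, stricter cells, each cell scaled, all genes, other percentiles and other thinning.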

Additional observations from a re-analysis of the deposited data

How the results depend on the processing

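In no setting did a pooled comparison of summed levels, shares of high cells or levels inside them pass, and with 1 library left out (smallest exact p 0.0571) or permutation within replicate number (0.0556) none could. The small differences between 12 h and 24 h and the early times changed sign. The summed level went from -82.1 to 176.1 CPM without upper limits on wells. The share of high cells went from -0.296 to 2.05 points at the 90th percentile, 0.0663 when thinned to 4000 UMIs, 0.202 unthinned, 0.978 without upper limits and 0.239 without 6 widely expressed members. Set B in high cells went from 43.1 to -144.7 CPM at the 90th percentile. For 48 h and 96 h against the early times it went from -460.8 to 37.4 CPM without upper limits, and set A went from 102.3 to -435.9 CPM when the highest 20% of each library were taken.

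With single libraries left out, these differences ranged from -250.8 to 35.5 CPM (summed level), from -1.78 to 1.83 points (share) and from -53.3 to 193.0 CPM (set B) for 12 h and 24 h against the early times, and from -106.6 to 239.3 CPM for set A at 48 h and 96 h. Counts of members called ranged from 1 to 2 at 12 h and at 24 h, 3 to 6 at 48 h and 7 to 19 at 96 h, from 0 to 1 for 48 h against 24 h and from 0 to 7 for 96 h against 48 h. Inside high cells they ranged from 1 to 2 at 12 h, 2 to 6 at 48 h and 2 to 4 at 96 h, where leaving out 96 h replicate 2 left no such library for set A and replicate 1 was absent from that fit already, so both were not run there.

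Replicate numbers were not taken to pair the samples, since correlations of deviations (-0.0952 to 0.292) were over 0.1 in only 6 of 15 pairs of times. These 6 were all those that join 2 of the times 0 h, 12 h, 24 h and 48 h (0.145 or more), and CENPF, CENPA, CENPE, NUF2, NDC80, MKI67, SMC4, ECT2, KIF23 and KIF20B were higher in replicate 2, which has its own barcode set, at every time. The share of all genes ordered this way is not given here, so the order is not a trait of these members, and its cause was not tested. With the replicate block 1 member (KIF20A) passed at 0.5 h, 3 for 12 h, 3 for 24 h, 7 for 48 h and 22 for 96 h against 0 h, 2 for 48 h against 24 h and 10 for 96 h against 48 h, and it changed no direction. Members gained were AURKB and NDC80 (higher) at 48 h, BUB1, CCNA2, CENPF, HMMR, MKI67 and TOP2A (lower) and SMC4 (higher) at 96 h, AURKB (higher) against 24 h, and AURKB, CENPA, CENPF, CKS1B, CKS2 and TOP2A (lower) against 48 h. Without the filter on low counts the numbers were 1 at 0.5 h, 23 at 96 h, 2 for 48 h against 24 h and 12 for 96 h against 48 h. DESeq2 gave 1 at 12 h and 0 for 48 h against 24 h, and scaling each cell gave 1 and 2. Stricter cell limits gave 1 at 12 h and at 24 h, 2 at 48 h, 6 at 96 h and 0 for both later steps, with reversed changes for CKAP2L at 24 h (-0.10) and BUB1B at 96 h (0.089). Inside high cells 1 member passed at 12 h at the 90th percentile and when the highest 20% of each library were taken. At 96 h the count was 7 at the 70th and 1 at the 90th percentile, 11 with the highest 20% of each library (cells under the cut included) and 5 without upper limits. Causes of these changes were not tested. The small number of cells at 96 h limits every share and every level inside high cells at that time.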
